A study of Mus musculus with 6 samples.

Results

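The caveolin and cavin genes are 5 of the 22609 gene rows of this series, Cav1, Cav2, Ptrf, Sdpr and Prkcdbp. The files use older symbols for the cavins. Ptrf is now Cavin1, Sdpr is Cavin2 and Prkcdbp is Cavin3, and each older symbol is listed as a synonym in the RefSeq gene table. The 5 were chosen by name from both families with their differences between LRG1 and PBS in these same libraries in view, so their own differences are given as a description, with no test. All 5 had enough counts to enter the fit of 12301 genes.

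Caveolae are small flask-shaped pits of the plasma membrane that buffer membrane tension, hold cholesterol and sphingolipids and gather receptors. Caveolin-1 is their integral membrane scaffold, caveolin-2 assembles with it, and caveolin-3 takes its place in muscle. Cavins form a coat on the cytoplasmic side: cavin-1 is needed for the pit to form, and the others modify its shape or carry signalling partners. Endothelium, adipocytes and muscle are rich in caveolae, while hepatocytes, the parenchymal cells of the liver, have few.

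The libraries came from primary hepatocytes isolated from male wild-type C57BL/6 mice aged 4 months. The added protein, LRG1, is a leucine-rich glycoprotein that circulates in blood. A set of 3 libraries came from cells exposed to 20 µg/mL LRG1 protein for 16 h, and another 3 from cells given phosphate-buffered saline (PBS) for 16 h. No label says that replicates were separate animals or dishes, so each p-value reflects no more than how far these libraries differ, and that spread may be technical. Gene counts summed to between 19670496 and 23036332 in the LRG1 libraries and between 18625748 and 19774537 in the PBS libraries. Levels are CPM, gene counts relative to the TMM-scaled library total, and log2 fold changes are of LRG1 over PBS. As a model the groups are isolated cells outside the liver, and these bulk libraries cannot tell fewer cells of a type from less RNA per cell.

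With LRG1, Sdpr was far lower, Cav1 and Prkcdbp were moderately lower, Ptrf was slightly lower and Cav2 slightly higher. In each of the 5 genes the 3 LRG1 libraries lay wholly on one side of the 3 PBS libraries, 1 above and 4 below. The same was true of 57.6% of all tested genes, 29% with LRG1 above and 28.6% with LRG1 below, and nothing is read from the members' count because they were chosen on this contrast. Over all 12301 genes the log2 fold change had a median of 0.0093, and its absolute value a median of 0.20.

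**Figure D1:**
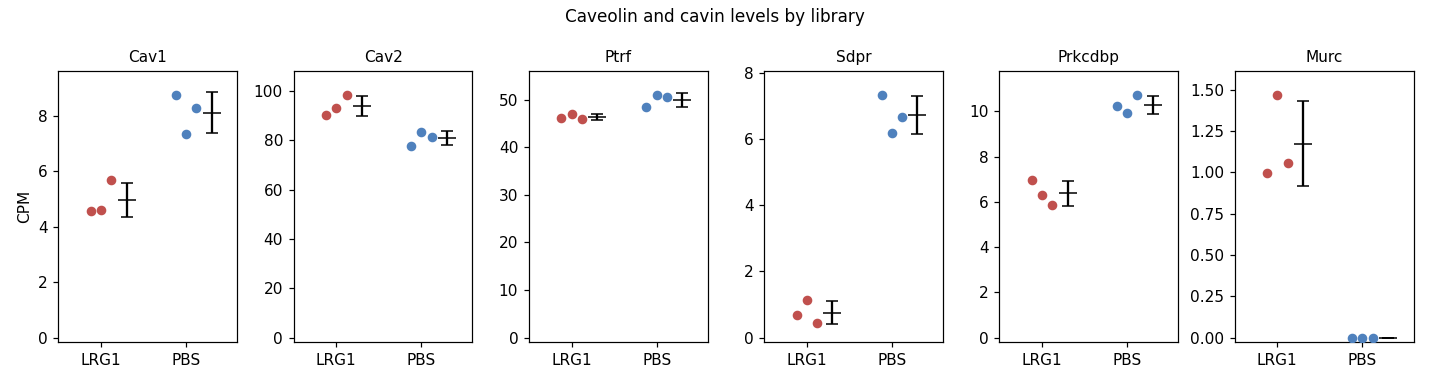
Level in CPM (vertical axes, linear from 0) of the 5 members and of Murc in each library, with the 3 LRG1 libraries in red to the left of the 3 PBS libraries in blue, and the mean and SD as a black mark. Sdpr sits between 0.453 and 1.12 CPM with LRG1 and between 6.20 and 7.34 CPM with PBS, and Cav2 is the only member whose LRG1 points lie above its PBS points.

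Of the caveolins, Cav1 encodes the scaffold that drives the curvature of the pit. Cav1 had 4.58, 4.62 and 5.69 CPM in the LRG1 libraries and 8.75, 7.33 and 8.28 CPM in the PBS libraries. The highest LRG1 library stayed below the lowest PBS library. The means were 4.96 ± 0.631 CPM with LRG1 and 8.12 ± 0.725 CPM with PBS (SD, n = 3 each), a 1.64-fold lower level with LRG1 (log2 fold change -0.71, SE 0.13). The values rest on 312 reads in the LRG1 group and 465 in the PBS group.

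Cav2 encodes caveolin-2, which forms hetero-oligomers with caveolin-1 and depends on it to leave the Golgi. Its level was 90.3, 93.0 and 98.4 CPM with LRG1 and 77.8, 83.5 and 81.4 CPM with PBS. All LRG1 libraries were above all PBS libraries, by a small margin. The means were 93.9 ± 4.11 CPM with LRG1 and 80.9 ± 2.91 CPM with PBS (SD, n = 3 each), 1.16-fold higher with LRG1 (log2 fold change 0.21, SE 0.047).

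Cav1 and Cav2 are neighbours on chromosome 6 and are read in the same direction, with Met, the hepatocyte growth factor receptor gene, as the next coding gene after Cav1. Cav1 and Met were both lower with LRG1, and Cav2, on the other side of Cav1, was slightly higher. Met had 149, 151 and 145 CPM with LRG1 and 230, 227 and 226 CPM with PBS (log2 fold change -0.62, edgeR adjusted p = 1.76e-12). Tes, the next coding gene before Cav2, was slightly lower with LRG1 (log2 fold change -0.093, edgeR adjusted p = 0.0377), opposite to Cav2. In the GENCODE M21 annotation the antisense transcript Gm15581, not analysed here, overlaps both caveolin genes on the opposite strand. Whether the counting used the strand is not given in the sources used here, so reads of that transcript could not be told from theirs.

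The stretches around the annotated starts of Cav2 and of Cav1 are shown because the genes lie side by side and differed in opposite directions. They run from 250 bases before to 50 after the start, are taken from RefSeq on GRCm38.p6, a later build than the mm9 of the counts, and lie on the + strand. Capitals mark matches, on either strand, to the SMAD box CAGAC, the AP-1 site TGANTCA or the TATA box TATAAA. The Cav2 stretch is chr6:17280935-17281234 and the Cav1 stretch, of the first of its listed starts, is chr6:17306085-17306384.
Cav2: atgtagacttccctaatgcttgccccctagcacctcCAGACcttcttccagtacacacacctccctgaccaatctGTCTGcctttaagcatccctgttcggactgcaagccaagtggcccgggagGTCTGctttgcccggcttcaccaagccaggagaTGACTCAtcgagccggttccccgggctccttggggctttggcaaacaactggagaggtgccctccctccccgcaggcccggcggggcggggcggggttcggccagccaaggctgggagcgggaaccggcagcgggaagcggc
Cav1: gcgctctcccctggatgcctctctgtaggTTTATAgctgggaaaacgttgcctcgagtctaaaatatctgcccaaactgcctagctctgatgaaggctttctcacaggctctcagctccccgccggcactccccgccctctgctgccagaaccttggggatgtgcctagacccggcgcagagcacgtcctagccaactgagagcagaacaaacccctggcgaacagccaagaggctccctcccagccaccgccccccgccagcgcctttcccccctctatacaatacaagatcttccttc

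The Cav2 stretch held 3 CAGAC matches and 1 TGANTCA match, and the Cav1 stretch held 1 TATAAA match, on the reverse strand, and none of the others. A second listed start of Cav1, chr6:17307390-17307689, held 2 CAGAC matches, so the Cav1 count depends on the start chosen. Matches to CAGAC are common, found in 49.6% of 32851 listed promoters of the same length, against 7.81% for TGANTCA and 13.6% for TATAAA. No match overlapped another. The CArG box, bound by serum response factor, was searched as well. It occurs in 1.63% of promoters and was in none of the stretches printed here. The Cav2 and Cav1 stretches held 16 and 13 CpG dinucleotides, where the median promoter held 7. A match describes letters only and is no evidence of binding.

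Among the cavins, Ptrf encodes cavin-1, the coat protein without which caveolae do not form, first described as a factor that releases transcripts of RNA polymerase I. Its level was 46.2, 47.0 and 45.9 CPM with LRG1 and 48.4, 51.0 and 50.5 CPM with PBS. The groups did not overlap, but the gap between the nearest libraries was narrow. Means were 46.4 ± 0.547 CPM with LRG1 and 50.0 ± 1.39 CPM with PBS (SD, n = 3 each), 1.08-fold lower with LRG1 (log2 fold change -0.11, SE 0.052). The neighbouring genes Stat3 and Atp6v0a1 were not called (edgeR adjusted p = 0.279 and 0.550).

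Sdpr encodes cavin-2, the serum deprivation response protein, which binds phosphatidylserine and protein kinase C alpha and bends membranes. It had 14, 26 and 9 reads in the LRG1 libraries and 145, 115 and 126 reads in the PBS libraries. On the CPM scale this was 0.697, 1.12 and 0.453 with LRG1 and 7.34, 6.20 and 6.69 with PBS. Every LRG1 library was far below every PBS library, and the LRG1 libraries varied among themselves by more than the PBS libraries in relative terms. Means were 0.758 ± 0.339 CPM with LRG1 and 6.74 ± 0.572 CPM with PBS (SD, n = 3 each), 8.65-fold lower with LRG1 (log2 fold change -3.11, SE 0.21). Ordered from the lowest log2 fold change, Sdpr was number 18 of 12301 tested genes, while Cav1 was number 1076 and Prkcdbp number 1117. An antisense transcript, 9330175M20Rik, not analysed here, overlaps Sdpr on the opposite strand.

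The start region of Sdpr is shown because its level differed most among the members. It is chr1:51288876-51289175 on the + strand of GRCm38.p6, cut to the same limits. It held none of the 4 motifs searched, so no letters are in capitals, and 4 CpG dinucleotides, fewer than the caveolin stretches.
Sdpr: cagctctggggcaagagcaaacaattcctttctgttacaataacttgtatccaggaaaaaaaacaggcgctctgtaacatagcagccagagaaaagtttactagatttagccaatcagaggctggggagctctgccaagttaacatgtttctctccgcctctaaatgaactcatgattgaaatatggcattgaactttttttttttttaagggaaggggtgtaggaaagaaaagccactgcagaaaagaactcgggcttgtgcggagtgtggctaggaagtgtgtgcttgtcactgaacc

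Prkcdbp encodes cavin-3, named for its binding of protein kinase C delta. It had 6.97, 6.30 and 5.84 CPM with LRG1 and 10.2, 9.92 and 10.7 CPM with PBS. The groups were well apart compared with their spread. Means were 6.37 ± 0.567 CPM with LRG1 and 10.3 ± 0.405 CPM with PBS (SD, n = 3 each), 1.61-fold lower with LRG1 (log2 fold change -0.69, SE 0.11). Its fold change was close to that of Cav1, and the ratio of Cav1 to Prkcdbp per length was 0.424 ± 0.0890 with LRG1 and 0.425 ± 0.0325 with PBS. The other 9 ratios between members did not overlap between the groups. Nothing is read from that count, since the members were chosen on this contrast and their own levels already separated the groups. The transcript Gm45667, not analysed here, overlaps Prkcdbp on the opposite strand. Smpd1, the next coding gene upstream of Prkcdbp, was 1.17-fold lower with LRG1.

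**Figure D2:**
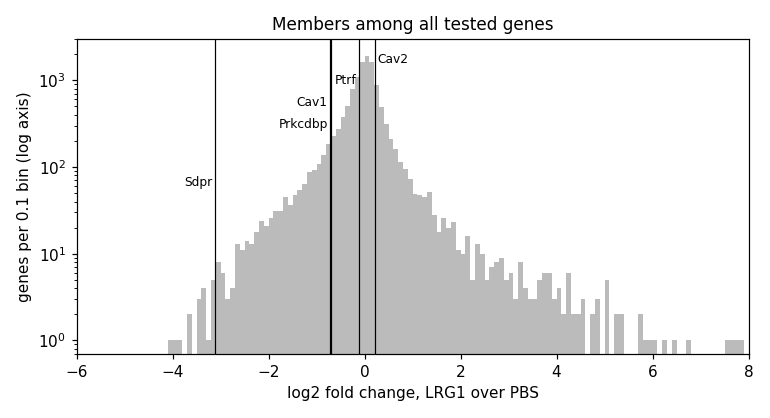
Number of tested genes (vertical axis, log scale) in each bin of log2 fold change of LRG1 over PBS (horizontal axis), with a line at each member. Sdpr at -3.11 lies in the low tail, Cav1 at -0.71 and Prkcdbp at -0.69 lie close together, and Ptrf at -0.11 and Cav2 at 0.21 lie in the main peak.

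The family has a further cavin and a further caveolin that are no members of the chosen set. Cav3, the muscle caveolin, had no read in any of the 6 libraries, which allows at most 0.0476 CPM over the LRG1 group and 0.0525 CPM over the PBS group (3 reads of the summed library sizes, counting error only). Murc, now Cavin4, encodes the cavin of heart and skeletal muscle. It had 20, 34 and 21 reads in the LRG1 libraries, or 0.996, 1.47 and 1.06 CPM, and none in any PBS library. Against a floor of 3 reads over the PBS group, Murc was at least 22.65-fold higher with LRG1. It entered the fit only through its LRG1 reads, so no p-value is given.

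The next coding gene upstream of Murc, on the same strand, is Tmeff1, which encodes a membrane protein with follistatin-like domains. Tmeff1 had 32.7, 38.0 and 37.0 CPM with LRG1 and 0.708, 0.377 and 0.531 CPM with PBS. Reads at Murc therefore appeared in the libraries where its upstream neighbour was high, and whether they arise from transcripts of Tmeff1 that run on was not tested. The start region of Murc, chr4:48663264-48663563 on the + strand of GRCm38.p6, is shown because this gene had reads in one group only. It held 1 TATAAA match, 1 CAGAC match and 7 CpG dinucleotides.
Murc: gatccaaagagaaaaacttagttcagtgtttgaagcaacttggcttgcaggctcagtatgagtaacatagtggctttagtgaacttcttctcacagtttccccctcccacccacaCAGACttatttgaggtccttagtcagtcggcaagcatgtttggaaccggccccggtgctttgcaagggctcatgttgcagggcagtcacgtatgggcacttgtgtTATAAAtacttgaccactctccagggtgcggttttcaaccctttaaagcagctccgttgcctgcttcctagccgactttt

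Levels of different genes were compared per kilobase of exon, with exon lengths from GENCODE M21 (GRCm38). With LRG1 the order from the top was Cav2, Ptrf, Prkcdbp, Cav1, Murc and Sdpr, with 28.2 ± 1.23, 13.3 ± 0.157, 3.83 ± 0.341, 1.61 ± 0.204, 0.572 ± 0.125 and 0.248 ± 0.111 CPM per kb (SD, n = 3). With PBS the order was Cav2, Ptrf, Prkcdbp, Cav1 and Sdpr, with 24.3 ± 0.873, 14.3 ± 0.398, 6.19 ± 0.244, 2.63 ± 0.235 and 2.21 ± 0.187 CPM per kb. Caveolin-2 and cavin-1 transcripts thus made up most of the set in both groups. In the PBS libraries the values of Cav1 and Sdpr overlapped, and no other neighbours in either order did. In the LRG1 libraries Sdpr was at 0.148 to 0.368 CPM per kb, below the 1.48 to 1.84 CPM per kb of Cav1.

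The makeup of the set moved toward Cav2. Cav2 accounted for 59.7 ± 1.36% of the summed CPM per kb of the 5 members with LRG1 and 48.9 ± 1.06% with PBS (SD, n = 3 each). The share of Ptrf was 28.2 ± 0.753% with LRG1 and 28.9 ± 0.332% with PBS, and its libraries overlapped. Prkcdbp held 8.15 ± 0.891% with LRG1 and 12.5 ± 0.487% with PBS. Cav1 held 3.40 ± 0.364% with LRG1 and 5.30 ± 0.547% with PBS, and Sdpr 0.528 ± 0.239% with LRG1 and 4.45 ± 0.452% with PBS. The ratio of Cav1 to Cav2 was 0.0569 ± 0.00480 with LRG1 and 0.109 ± 0.0134 with PBS. Summed over both caveolins the level was 29.8 ± 1.43 CPM per kb with LRG1 and 26.9 ± 0.656 CPM per kb with PBS. Summed over the 3 cavins it was 17.4 ± 0.465 CPM per kb with LRG1 and 22.7 ± 0.361 CPM per kb with PBS.

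**Figure D3:**
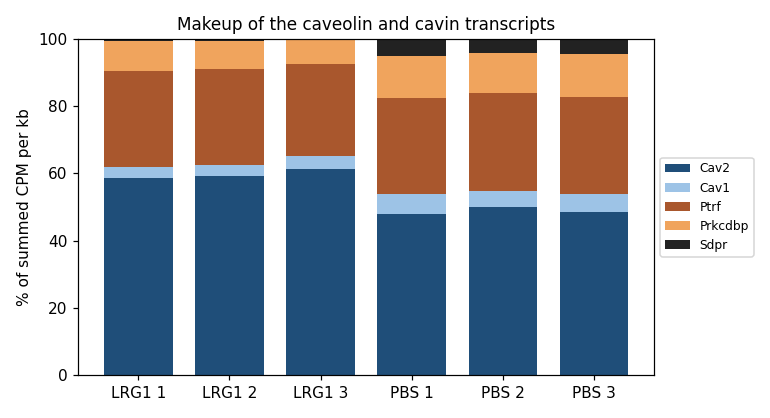
Share of each member (stacked, in percent) in the summed CPM per kb of the 5 members, for each LRG1 library on the left and each PBS library on the right. Cav2 takes 58.6 to 61.2% with LRG1 and 48.0 to 50.1% with PBS, and Sdpr takes 0.308 to 0.782% with LRG1 and 4.06 to 4.95% with PBS.

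Genes whose pattern over the 6 libraries lay nearest to each member were found by the Euclidean distance of log2 CPM, each gene centred on its own PBS mean. They are a description with no test, since they were picked for matching the members. Nearest to Sdpr were the kinase gene Sgk2, the cardiac actin gene Actc1 and the homeobox gene Barx2, at distances of 0.514, 0.610 and 0.638 and with log2 fold changes of -3.11, -2.96 and -3.06. In all, 13 genes lay within a distance of 1 of Sdpr. For Cav1 the nearest were Tmem97, Ubd and Fam72a (distances 0.136 to 0.169), and for Prkcdbp the adaptor gene Grb7, the pyruvate carboxylase gene Pcx and the mitochondrial carrier gene Slc25a10 (0.0505 to 0.0908). For Cav2 they were the chaperone gene Hsph1, Ccdc50 and Pno1 (0.0351 to 0.0494), and for Ptrf they were Cpped1, Zfp91 and Derl1 (0.0394 to 0.0455). Within a distance of 1 lay 2830 genes for Cav1, 3222 for Prkcdbp, 9089 for Cav2 and 9573 for Ptrf. Lying within that distance of these 4 members was therefore common.

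Proteins that shape, pull or link caveolae went both ways. Of 13 listed genes, 12 were tested. With LRG1, 5 rose (Ror1, Src, Dnm2, Abl1 and Ehd1) and 4 fell (Pacsin2, Pacsin3, Ehd2 and Fyn), while Ehd3, Ehd4 and Flna did not pass and Pacsin1 had no read. In all, 51.4% of tested genes passed the edgeR threshold of 0.05 adjusted over all of them, 25.5% higher and 25.8% lower. The median log2 fold change of the list was 0.095. Most of these differences were small.

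Ror1, a receptor-like protein reported in human cancer cells to hold cavin-1 and caveolin-1 together, had 5.83, 4.84 and 5.74 CPM with LRG1 and 2.07, 2.16 and 2.39 CPM with PBS. It was the only listed accessory gene called with a difference of at least 2-fold (log2 fold change 1.30, SE 0.16, edgeR adjusted p = 3.43e-07). Src, the tyrosine kinase that phosphorylates caveolin-1, had 234 ± 7.76 CPM with LRG1 and 164 ± 6.54 CPM with PBS (log2 fold change 0.51, edgeR adjusted p = 2.93e-10). Dnm2, the dynamin that cuts vesicles from the membrane, had 183 ± 4.96 CPM with LRG1 and 156 ± 2.60 CPM with PBS.

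Pacsin2, a membrane-bending protein at the caveolar neck, was 1.23-fold lower with LRG1, at 273 ± 4.26 CPM against 336 ± 6.76 CPM with PBS. Ehd2, an ATPase that restrains caveolae at the surface, had 17.5 ± 2.17 CPM with LRG1 and 20.4 ± 0.454 CPM with PBS (edgeR adjusted p = 0.0345). Its call was lost without LRG1 replicate 3, PBS replicate 1 or PBS replicate 3 and with DESeq2 (adjusted p = 0.206, 0.0883, 0.0677 and 0.0639, range over all alternatives 0.00936 to 0.206). The call of Fyn, a kinase related to Src at 1.25 ± 0.124 CPM with LRG1 and 1.85 ± 0.192 CPM with PBS (edgeR adjusted p = 0.0412), was lost under 7 of 15 alternatives (range over all alternatives 0.0387 to 0.141), among them leaving out LRG1 replicate 2, LRG1 replicate 3, PBS replicate 1 or PBS replicate 2.

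**Figure D4:**
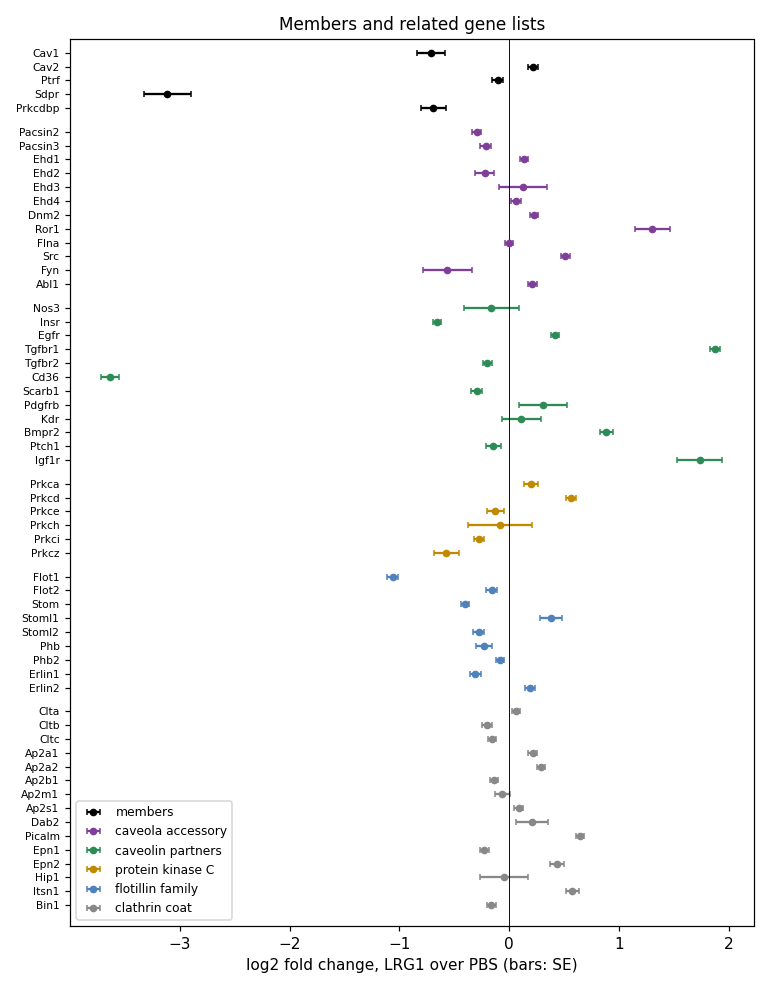
Log2 fold change of LRG1 over PBS (horizontal axis) with its SE for each tested gene of the members and of 5 related lists, coloured by list. Sdpr at -3.11 and Cd36 at -3.63 lie far to the left, Tgfbr1 at 1.87, Igf1r at 1.73 and Ror1 at 1.30 far to the right, and the clathrin genes stay between -0.23 and 0.64.

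Receptors and enzymes known to bind caveolin-1 or to reside in caveolae were equally divided. Of 12 tested genes 4 were higher (Tgfbr1, Igf1r, Bmpr2 and Egfr), 4 lower (Cd36, Insr, Scarb1 and Tgfbr2) and 4 did not pass, with a median log2 fold change of -0.018. The shares over all tested genes were 25.5% higher and 25.8% lower. Tgfbr1, the type I TGF-beta receptor, had 279 ± 12.6 CPM with LRG1 and 76.4 ± 3.27 CPM with PBS, beside a lower Cav1, whose product is known to bind that receptor. Bmpr2, the type II BMP receptor, had 48.0 ± 0.638 CPM with LRG1 and 26.0 ± 0.161 CPM with PBS. Cd36, a fatty acid receptor of raft membranes, had 4.34 ± 0.326 CPM with LRG1 and 54.0 ± 1.08 CPM with PBS, and Insr 128 ± 2.47 CPM with LRG1 and 203 ± 5.68 CPM with PBS. Nos3, the endothelial nitric oxide synthase that caveolin-1 inhibits, did not pass, at 1.15 ± 0.144 CPM with LRG1 and 1.29 ± 0.235 CPM with PBS (95% interval of the log2 fold change -0.69 to 0.36).

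Of the protein kinase C genes, 6 of the 8 measured were tested, with 2 higher, 2 lower and 2 that did not pass, and a median log2 fold change of -0.11. Among all tested genes 25.5% were higher and 25.8% lower. Prkcd, the isoform that cavin-3 was named for, was higher with LRG1, at 72.8, 74.0 and 71.8 CPM against 47.8, 48.7 and 51.7 CPM with PBS (log2 fold change 0.56, SE 0.050, edgeR adjusted p = 1.31e-09). Its difference thus ran opposite to that of Prkcdbp. Prkca, the isoform that cavin-2 binds, had 43.0 ± 3.88 CPM with LRG1 and 37.5 ± 1.75 CPM with PBS (edgeR adjusted p = 0.0141), a call that was lost without LRG1 replicate 2 or PBS replicate 1 (adjusted p = 0.160 and 0.0734, range over all alternatives 0.00385 to 0.160). The atypical isoform genes Prkci and Prkcz were 1.21-fold and 1.49-fold lower.

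Flotillins are scaffold proteins of membrane rafts that form no caveolae. They were listed with the related stomatins, prohibitins and erlins, and this wider list was mostly lower. Of 9 tested genes 6 were lower, 2 higher (Stoml1 and Erlin2) and 1 did not pass, and the median log2 fold change was -0.23. For comparison, 25.8% of all tested genes were lower and 25.5% higher. Flot1 had 57.9, 50.1 and 52.2 CPM with LRG1 and 110, 109 and 116 CPM with PBS (log2 fold change -1.06, SE 0.052, edgeR adjusted p = 3.15e-14). Its partner Flot2 differed less, with 157 ± 6.77 CPM with LRG1 and 176 ± 11.2 CPM with PBS. Stom, the related stomatin gene, was 1.32-fold lower, and Erlin1 and Stoml2 were lower as well. Clathrin and its adaptors, the other main coat of the plasma membrane, went both ways, with 5 of 15 tested genes higher, 5 lower, 5 without a call and a median log2 fold change of 0.062. Picalm, an adaptor that recruits clathrin, was 1.56-fold higher and Itsn1, an endocytic scaffold gene, 1.49-fold higher. Ap2a2 and Epn2, adaptor genes, were higher too, with log2 fold changes of 0.29 and 0.43.

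Cells other than hepatocytes can carry caveolae, so their markers were measured in the same libraries. The 16 endothelial markers summed to 67.6 to 69.3 CPM with LRG1 and 69.5 to 76.3 CPM with PBS. These sums were small beside 18555 CPM of albumin (Alb) with LRG1 and 19235 CPM with PBS. Each is a sum over 16 genes, so it is not on a par with the level of a single member. Cav1, Sdpr and Prkcdbp were below the sums, averaging 4.96, 0.758 and 6.37 CPM with LRG1 and 8.12, 6.74 and 10.3 CPM with PBS. Ptrf was below them too, at 46.4 CPM with LRG1 and 50.0 CPM with PBS. Cav2 was above them, at 93.9 CPM with LRG1 and 80.9 CPM with PBS. Of 14 tested endothelial genes, Stab2 (2.04-fold), Lyve1 (2.24-fold) and Oit3 were lower with LRG1, Eng was higher and 10 did not pass, among them Cdh5 at 17.0 ± 1.22 CPM with LRG1 and 16.1 ± 0.447 CPM with PBS and Pecam1 at 7.95 ± 0.388 CPM with LRG1 and 9.12 ± 0.506 CPM with PBS. Vwf and Clec4g were near 0. The calls of Eng and Oit3 were each lost under some alternatives. For Eng these were leaving out LRG1 replicate 1 (adjusted p = 0.128) or PBS replicate 2 (0.102), within a range of 0.00156 to 0.128. For Oit3 they were leaving out LRG1 replicate 2 (0.0921) or PBS replicate 3 (0.0800) and DESeq2 (0.0557), within a range of 0.0164 to 0.0921. The median log2 fold change of the list was -0.043. In the whole set of tested genes 51.4% passed, 25.5% higher and 25.8% lower. The part of endothelial cells, known to express Cav1 and Sdpr, in the members' differences was not tested.

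Stellate cell and fibroblast markers summed to 132 to 142 CPM with LRG1 and 37.3 to 48.4 CPM with PBS, of which Col1a1 alone made 110 ± 4.96 CPM with LRG1 and 11.2 ± 2.30 CPM with PBS. Of 9 tested, Col1a1 was higher, Reln lower and 7 did not pass, and Lrat, which defines quiescent stellate cells, averaged 0.0144 CPM with LRG1 and 0.346 CPM with PBS. Smooth muscle markers summed to 181 to 222 CPM with LRG1 and 183 to 186 CPM with PBS (2 of 5 tested higher and 2 lower, both of the lower calls being lost under some alternatives). Macrophage markers, mostly Cd68, summed to 193 to 219 CPM with LRG1 and 232 to 276 CPM with PBS (1 of 10 tested higher and 2 lower). The higher one was Marco (edgeR adjusted p = 0.0186), whose call was lost with DESeq2 (0.0689) and without LRG1 replicate 2 (0.0796), LRG1 replicate 3 (0.0808) or PBS replicate 1 (0.0853), within a range of 0.00579 to 0.0853. Bile duct markers, mostly Spp1, summed to 4363 to 4680 CPM with LRG1 and 4478 to 4663 CPM with PBS (2 of 5 tested higher and 1 lower). Of the mesothelial markers 4 of 5 had no read, and leukocyte markers stayed below 1.6 CPM in sum. Hepatocyte markers summed to 23968 to 25022 CPM with LRG1 and 26029 to 27331 CPM with PBS, with 5 of 9 tested lower and none higher. Most of that sum was Alb, which did not pass. The lower genes included abundant ones, Fgb at 2063 ± 160 CPM with LRG1 and 3546 ± 150 CPM with PBS. Apoa1 had 494 ± 18.4 CPM with LRG1 and 761 ± 20.2 CPM with PBS. Not every marker was abundant. Tat, a tyrosine-degrading enzyme, had 1.19 ± 0.194 CPM with LRG1 and 9.20 ± 1.33 CPM with PBS. The urea cycle gene Cps1 had 8.44 ± 1.58 CPM with LRG1 and 36.3 ± 2.81 CPM with PBS. Over all tested genes 25.5% were higher and 25.8% lower, the background of the marker counts above. The part of these cell types in the members' values was not tested.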

How the data were processed

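RNA of 6 libraries was sequenced as poly(A)-selected, strand-marked, single-end 50 nt reads. Bcl2fastq, TopHat2, HTSeq and mouse build mm9 are named in the submitters' processing notes. The authors deposited raw read counts per gene symbol. Tool versions, the annotation and the strand setting of the counting are not stated in the labels. The last 5 rows of each file are counting summaries and were left out. Of the reads assigned, ambiguous or outside genes, 8.96 to 10.3% fell in no gene. That base leaves out alignments that were not unique. They made up 58.2 to 59.3% of all counting entries in a library and were assigned to no gene.

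Genes were kept by filterByExpr (minimum count 10). Treatment was tested by the quasi-likelihood F test of edgeR 4.0.16 in R 4.3.3 after TMM scaling. P-values of all 12301 genes were adjusted together (Benjamini-Hochberg). SEs were derived from the F statistic. The pipeline was run on simulated data in which few genes differed and the dispersion was fixed. That setting is unlike these libraries, so the run checks the code only. Replicates differed by more than sampling noise (chi-square per degree of freedom 2.88 to 4.13), so none was a repeat deposit.

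The members and lists were chosen with earlier results of these data known, and support no direction on their own. Named genes were drawn from the members, the rest of the family and the accessory list, up to 4 genes of smallest p per other list and 3 nearest genes per member (log2 CPM with a prior count of 0.5). Igf1r, Egfr, Scarb1, Tgfbr2, Nos3, Flot2, Cdh5, Pecam1, Stoml1, Erlin2, Vwf, Clec4g, Alb, Lrat and Spp1 and the neighbours Met, Tes, Stat3, Atp6v0a1, Smpd1 and Tmeff1 were added after their values were seen. Promoters came from RefSeq (GRCm38.p6) and exon lengths and overlaps from GENCODE M21. The listed gene Tf was not analysed here. Alternatives were other scalings, filters, DESeq2 1.42.0, limma-voom 3.58.1, a robust fit, a replicate block and leaving out each library.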

Additional observations from a re-analysis of the deposited data

How the results depend on the processing

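Under all 15 alternatives each member kept its direction. The largest move was 0.42 for Sdpr and 0.024 for Ptrf, against SDs of log2 CPM pooled over both groups of 0.47 and 0.031, and the moves of the other 3 were below their pooled SDs as well. Those SDs come from the same libraries, so leaving out 1 library could hardly exceed them, and no stability is read from this. For Sdpr the move exceeded its SE of 0.21, and for the other members it did not. The log2 fold change ran from -0.82 to -0.66 for Cav1, 0.18 to 0.24 for Cav2, -0.13 to -0.091 for Ptrf, -3.53 to -2.86 for Sdpr and -0.76 to -0.63 for Prkcdbp. All counts of called genes stayed within 1.5 times, from 5594 (DESeq2) to 6592 over all genes and 7 to 9 for the accessory list. With at least 1 CPM asked of 3 libraries Murc and 4 scarce other genes were not tested. Of 69 single genes followed, 13 changed their call somewhere and none reversed. Besides those named with the results these were Cnn1, Myh11, C1qa, Ptprc, Cpped1, Zfp91 and Derl1. The calls of Cnn1 and Myh11, the smooth muscle markers that were lower, reached adjusted p of 0.172 without LRG1 replicate 1 and 0.129 with DESeq2. Replicate numbers showed no sign of pairing the libraries: deviations of libraries with the same number correlated at -0.24, 0.049 and -0.23 across genes. Between libraries with different numbers the correlations ran from -0.17 to 0.34, and a pairing in another order was not tested. A replicate block gave 5890 called genes and log2 fold changes of -0.71 for Cav1 and -3.12 for Sdpr, and it lost the calls of Fyn and Zfp91. Depth limits Sdpr with LRG1 (49 reads in all), Murc (75) and Cav1 (312) most.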
